A study of Homo sapiens with 8 samples.

Results

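The 10 genes described here encode apolipoproteins and the transfer protein that loads them with lipid, and were chosen by name: APOA1, APOA2, APOA5, APOB, APOC1, APOC3, APOE, APOH, APOM and MTTP. All 10 were found by symbol among the 20897 genes of the files, and all 10 were among the 12661 genes tested. Liver cells build very low density lipoprotein by lipidating apolipoprotein B in the endoplasmic reticulum with the help of the microsomal triglyceride transfer protein. High density lipoprotein forms around apolipoprotein A-I when cells hand cholesterol and phospholipid to it in the extracellular space. Smaller exchangeable apolipoproteins move between particles and set how fast triglyceride is hydrolysed and how fast remnants are cleared.

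Transcripts were sequenced from polyA RNA of HepG2, an established human hepatocellular carcinoma line that secretes lipoproteins and serves as a model of hepatocytes. Cells were treated for 18 h in medium with 1% serum, and every culture in all 3 groups, controls included, held 1% DMSO. The groups were genistein (n = 3), a soy isoflavone that inhibits tyrosine kinases and binds oestrogen receptors, BMP6 at 50 ng/ml (n = 2), a bone morphogenetic protein that signals through SMAD proteins, and DMSO alone (n = 3). The genistein dose is 10 micromolar in the series design, but the treatment protocol gives the same number in millimolar units, and this was not settled. All cultures are of 1 tumour line, so the spread between libraries is that between cultures of these cells and not between people.

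Levels are the authors' FPKM values, which scale fragments to transcript length and library size. Some libraries still differed along transcript length and GC content, as described below, so levels of different genes compare only roughly. That limit holds for the order of levels, the shares and the ratios. The values carry no read counts and the depth of each library is unknown. FPKM totals ran from 1704599 to 3105197 per library. DMSO 1 and genistein 2 listed the most tested genes at 0 FPKM (1679 and 2167, against 356 to 962 in the other 6). The BMP6 libraries stood far apart from each other (r = 0.847 across tested genes), and the closest library to BMP6 1 was genistein 3 (r = 0.889), as DMSO 3 was to BMP6 2 (r = 0.912). All 10 hepatocyte markers were present in the files and above 0. Their sum was 86781 to 110130 FPKM after genistein, 103432 to 197915 FPKM after BMP6 and 63910 to 111003 FPKM in DMSO. ALB and AHSG were higher and TTR, FGA, FGG and VTN lower in every genistein library than in DMSO, and the others overlapped. By contrast, 6 of 10 macrophage markers (PTPRC, CD163, MARCO, CSF1R, C1QA and C1QB) and 6 of 8 stellate or fibroblast markers were at 0 in all 8 libraries. The summed macrophage list, mostly LYZ, was 1242 to 1955 FPKM after genistein, 1562 to 2401 FPKM after BMP6 and 3273 to 4883 FPKM in DMSO. CD68 (68.8 to 86.7 FPKM after genistein against 31.4 to 40.6 FPKM in DMSO) and CD14 (23.9 to 74.4 FPKM after genistein against 0 to 19.3 FPKM in DMSO) went the other way and were higher in every genistein library than in DMSO. AIF1 went with LYZ, at 22.9 and 24.8 FPKM in DMSO 2 and 3 and at 0 in every other library. The summed cholangiocyte list, which HepG2 cells share in part (KRT19, SOX9 and EPCAM), was 526 to 1118 FPKM after genistein, 314 to 2115 FPKM after BMP6 and 1471 to 2256 FPKM in DMSO, with KRT19 overlapping (265 to 714 FPKM after genistein against 210 to 327 FPKM in DMSO). The part of these lists in the results below was not tested.

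After genistein, APOA5 and APOC3, which act in opposite ways on the hydrolysis of plasma triglyceride, fell to 19.1 FPKM and 388 FPKM on average, against 98.0 FPKM and 1421 FPKM in DMSO. These were the only members called lower, 2 of 10, beside 5.96% of all tested genes called lower in that comparison, and no member was called higher. APOA1 had the lowest fitted change of the 10, and its log2 change of -2.85 ± 0.95 (SE) did not pass the threshold (limma adjusted p = 0.0895). All 10 log2 changes were negative, with a median of -1.03 over the members and 0.05 over all tested genes, but that of APOA2 was -0.03, and it was 0.00 with quantile normalization and 0.05 with the GC and length correction described below. In 5 of the 10 (APOA1, MTTP, APOC3, APOA5 and APOH), every genistein library lay below every DMSO library, as in 20.6% of all tested genes. After BMP6, no member passed the threshold, beside 0.837% of all tested genes called in either direction, and no member had an unadjusted limma p under 0.05.

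**Figure D1:**
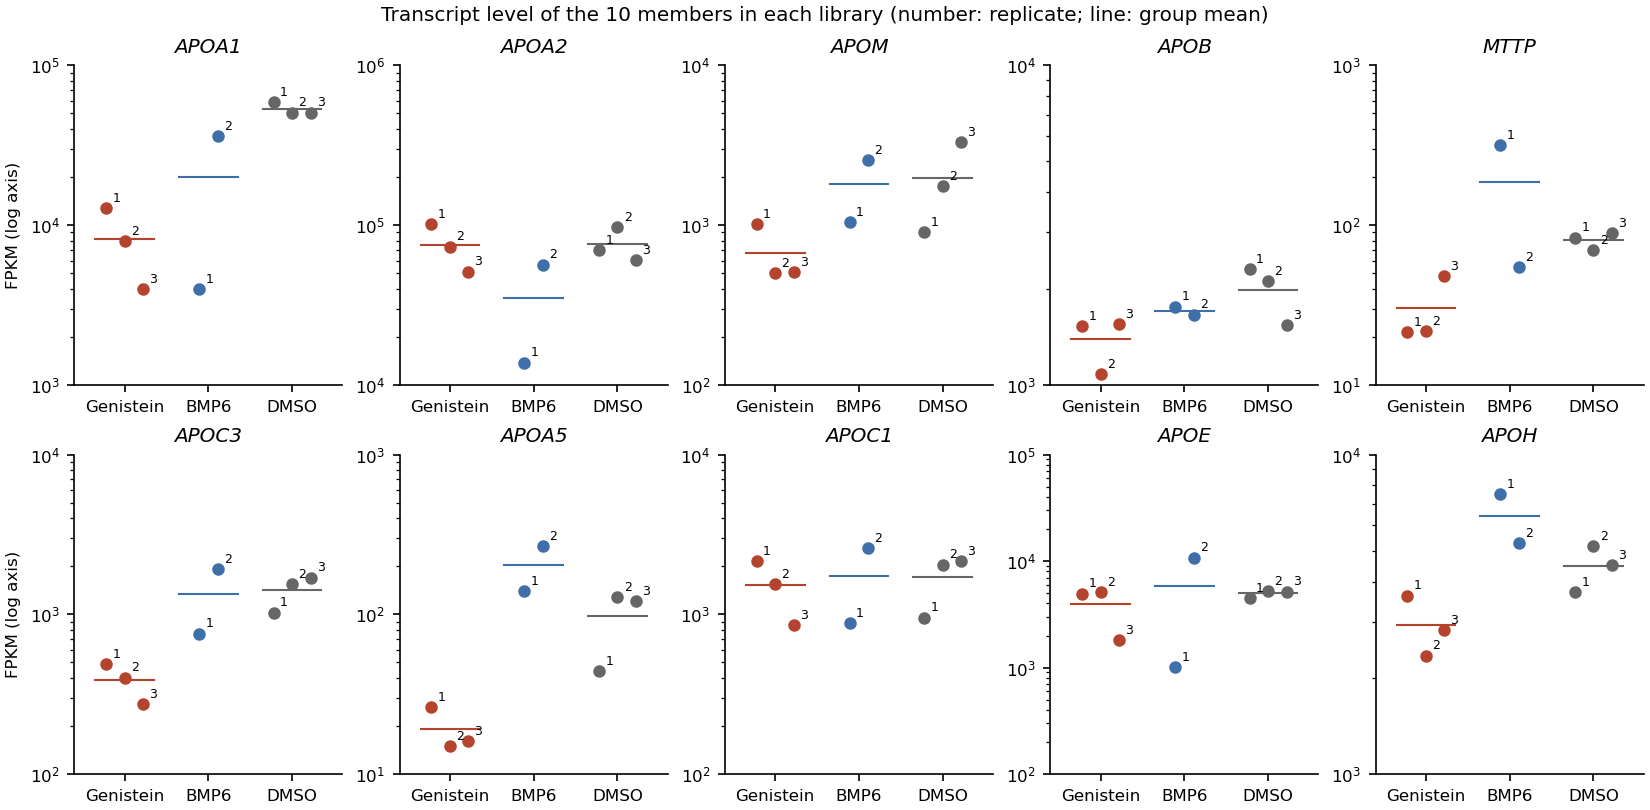
FPKM of each member (log axis) in the genistein (n = 3), BMP6 (n = 2) and DMSO (n = 3) libraries, with the replicate number beside each point and a line at the group mean. Genistein points lie below all DMSO points for APOA1, MTTP, APOC3, APOA5 and APOH, and the BMP6 points are far apart for APOA1, APOA2, APOE and MTTP.

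Among the proteins of high density lipoprotein, APOA1, which encodes the main structural protein and the activator of lecithin-cholesterol acyltransferase, showed the widest gap between genistein and DMSO. APOA1 (ENSG00000118137; hg18, chr11:116211677-116213571) stood at 12742, 7932 and 3983 FPKM in genistein 1, 2 and 3, at 3963 and 36158 FPKM in BMP6 1 and 2, and at 58896, 50549 and 50517 FPKM in DMSO 1, 2 and 3. The gene overlaps the antisense APOA1-AS in GENCODE v29. The DMSO libraries lie close to one another, all 5 treated libraries lie below them, and BMP6 1 lies at the level of genistein 3. The genistein mean was 8219 ± 4386 FPKM against 53321 ± 4828 FPKM in DMSO (SD, n = 3 each), which is 6.49-fold lower, with a 95% interval of -5.03 to -0.66 for the log2 change. APOA1 passed the threshold in 8 of 21 other analyses, with limma adjusted p between 0.00495 and 0.265, among them each fit that left out a BMP6 library (adjusted p = 0.03 without BMP6 1 and 0.0254 without BMP6 2). The rank of APOA1 by FPKM among all genes was 16, 35 and 52 in genistein 1, 2 and 3, against 2 in each DMSO library. After BMP6 the log2 change of APOA1 was -2.15 ± 1.06 (limma adjusted p = 0.31). It was -3.75 without BMP6 2, which leaves BMP6 1 alone, and -0.56 without BMP6 1.

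APOA2, which encodes the second protein of high density lipoprotein, did not follow APOA1. Its levels (ENSG00000158874; hg18, chr1:159458707-159460042) were 101857, 73316 and 51065 FPKM in the genistein libraries, 13777 and 56492 FPKM in the BMP6 libraries, and 69651, 97619 and 60109 FPKM in the DMSO libraries. Genistein and DMSO libraries overlap over most of their range, and both BMP6 libraries lie below the DMSO libraries. The log2 change after genistein was -0.03 ± 1.03, and its 95% interval of -2.39 to 2.32 leaves room for a large difference either way. After BMP6 the log2 change was -1.41 ± 1.15 (limma adjusted p = 0.518). APOA2 was the most abundant transcript of all genes in each genistein and DMSO library, and ranked 5 and 2 in BMP6 1 and 2. Within each library the ratio of APOA1 to APOA2 was 0.125, 0.108 and 0.078 after genistein, 0.288 and 0.64 after BMP6, and 0.846, 0.518 and 0.84 in DMSO. No genistein value of that ratio reached a DMSO value, while BMP6 2 lay inside the DMSO range. This ratio and the others below were chosen after the values were seen and are given as descriptions.

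APOM (ENSG00000204444), which encodes the carrier of sphingosine-1-phosphate on high density lipoprotein, stood at 1014, 500.4 and 506 FPKM after genistein, at 1049 and 2556 FPKM after BMP6, and at 903, 1744 and 3292 FPKM in DMSO. Genistein 1 reached above DMSO 1, so the groups overlap, and DMSO spans 3.65-fold. The log2 change after genistein was -1.44 ± 0.59 (limma adjusted p = 0.147), and it passed the threshold under each of the 3 other scalings of the libraries (adjusted p between 0.0345 and 0.041). After BMP6 the log2 change of APOM was -0.08 ± 0.66. APOM overlaps BAG6 on the other strand, and no source used here says whether the authors' quantification used strand.

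Of the pair that starts very low density lipoprotein, MTTP, which encodes the large subunit of the lipid transfer protein, was lower in every genistein library than in DMSO, and APOB, which encodes the structural protein of the particle, overlapped. APOB (ENSG00000084674; hg18, chromosome 2) was at 1529, 1082 and 1551 FPKM after genistein, at 1758 and 1658 FPKM after BMP6, and at 2306, 2107 and 1539 FPKM in DMSO. Only DMSO 3 falls among the genistein values, and APOB had the tightest spread of the members between the BMP6 libraries. Its log2 change after genistein was -0.51 ± 0.36, with a 95% interval of -1.35 to 0.32 (limma adjusted p = 0.373), and after BMP6 it was -0.20 ± 0.41. MTTP (ENSG00000138823; hg18, chromosome 4) was at 21.3, 21.8 and 47.8 FPKM after genistein, at 318 and 54.8 FPKM after BMP6, and at 83.4, 70.0 and 89.4 FPKM in DMSO. Genistein 3 stands apart from the other 2 genistein libraries yet stays below DMSO 2, and the BMP6 libraries lie on either side of DMSO. The log2 change of MTTP was -1.48 ± 0.63 after genistein (limma adjusted p = 0.157) and 0.71 ± 0.70 after BMP6 (limma adjusted p = 0.597). The log2 change of MTTP after BMP6 was 1.97 without BMP6 2 and -0.55 without BMP6 1, so the direction rests on which BMP6 library is kept. MTTP overlaps TRMT10A on the other strand in GENCODE v29.

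The promoter of MTTP is shown because MTTP is the one member that is not an apolipoprotein, and because it was lower in all 3 genistein libraries. The sequence is the 250 bases before the downstream of its 2 RefSeq start sites (GRCh38.p14, chr4:99574574-99574823, plus strand), with capitals marking a TATAAA match on the other strand, a match to the palindrome TAATNATTA, and an AGGTCA half-site of nuclear receptors on the other strand.
MTTP: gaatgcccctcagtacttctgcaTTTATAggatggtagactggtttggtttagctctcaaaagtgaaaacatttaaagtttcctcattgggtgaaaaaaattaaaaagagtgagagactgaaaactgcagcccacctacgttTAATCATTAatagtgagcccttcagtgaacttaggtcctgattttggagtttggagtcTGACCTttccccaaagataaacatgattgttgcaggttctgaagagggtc
The palindrome lies 108 to 100 bases before the start and the half-site 50 to 45 bases before it. Of 35116 promoter regions of this length, 0.441% hold TAATNATTA, 12.1% hold AGGTCA and 10.7% hold TATAAA, counting both strands.

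The 2 called members both act on the clearance of triglyceride-rich particles. APOC3 encodes an inhibitor of lipoprotein lipase and of remnant uptake. APOC3 (ENSG00000110245; hg18, chr11:116205834-116208998) stood at 487, 402 and 275 FPKM after genistein, at 758 and 1908 FPKM after BMP6, and at 1027, 1540 and 1697 FPKM in DMSO. The highest genistein library was below the lowest library of each other group. Its mean was 388 FPKM after genistein against 1421 FPKM in DMSO, 3.66-fold lower, with a log2 change of -1.88 ± 0.45 (limma adjusted p = 0.0343). After BMP6 the log2 change was -0.21 ± 0.50 (limma adjusted p = 0.847).

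APOA5 encodes a protein made almost only in liver that promotes lipolysis by lipoprotein lipase. APOA5 (ENSG00000110243; hg18, chr11:116165299-116167794) was at 26.2, 14.9 and 16.1 FPKM after genistein, at 139 and 268 FPKM after BMP6, and at 44.4, 129 and 121 FPKM in DMSO. The 3 groups do not overlap: every genistein library is below DMSO, every BMP6 library is above it, and DMSO 1 is the low point of its group. The log2 change was -2.20 ± 0.50 after genistein (limma adjusted p = 0.0287) and 1.12 ± 0.56 after BMP6 (limma adjusted p = 0.311). Set directly against each other, genistein was lower than BMP6 by a log2 change of -3.32 ± 0.56 (10.7-fold, limma adjusted p = 0.0314), and APOA5 was the only member called in that comparison, in which 1.39% of all tested genes were called. Calls of both genes against DMSO rest on nearly all libraries: each fit without a genistein library, DMSO 2 or DMSO 3 ended both (limma adjusted p between 0.0574 and 0.136), and APOC3 was also lost without DMSO 1 (adjusted p = 0.0502). The log2 changes stayed between -2.69 and -1.93 for APOA5 and between -2.09 and -1.65 for APOC3 over the 8 fits that left out 1 library each. Without DMSO 1 and genistein 2 together, the libraries with most genes at 0, no member was called (limma adjusted p = 0.0564 for APOA5 and 0.12 for APOC3). The call of APOA5 between genistein and BMP6 held without DMSO 1 and was lost without any other 1 library.

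The promoter of APOA5, the member with the largest called change, is shown with that of APOA2, the member of most similar level in genistein and DMSO. Both are the 250 bases before a RefSeq start site on the minus strand of GRCh38.p14, chr11:116792421-116792670 for the upstream start of APOA5 and chr1:161223629-161223878 for APOA2. Capitals mark AGGTCA half-sites in APOA5 and a match to TGTTTAC, an element of FOXA factors, on the other strand in APOA2.
APOA5: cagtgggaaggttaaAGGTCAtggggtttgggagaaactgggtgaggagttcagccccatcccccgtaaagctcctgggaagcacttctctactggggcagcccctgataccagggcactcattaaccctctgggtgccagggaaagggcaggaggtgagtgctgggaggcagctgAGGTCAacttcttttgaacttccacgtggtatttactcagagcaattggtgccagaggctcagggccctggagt
APOA2: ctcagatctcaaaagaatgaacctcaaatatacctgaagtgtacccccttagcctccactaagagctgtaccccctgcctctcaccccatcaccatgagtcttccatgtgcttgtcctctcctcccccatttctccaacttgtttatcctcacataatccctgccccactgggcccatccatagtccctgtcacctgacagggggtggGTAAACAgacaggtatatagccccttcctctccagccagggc
The half-sites of APOA5 end 230 and 69 bases before the start, and the FOXA element of APOA2, a match that 2.98% of promoter regions share, lies 42 to 36 bases before it. GGCGCC, an element of SMAD1 and SMAD5, is in none of the 11 start regions of the 7 members in the sequence table and in 16.4% of all regions. The longer HNF4 elements CAAAGTCCA and CAAAGTTCA were also in none of the 11, and in 0.325% and 0.251% of all regions. The pattern TTGCNNCAA was in none of the 11 and in 1.62% of all regions. It is not its own reverse complement, so it does not stand for the C/EBP palindrome. The motifs were picked with these sequences in view.

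The exchangeable pair on chromosome 19 showed no call in any comparison. APOC1, which encodes a small inhibitor of cholesteryl ester transfer and of remnant uptake, was at 2150.2, 1547 and 858 FPKM after genistein, at 885 and 2590.1 FPKM after BMP6, and at 954, 2047 and 2146 FPKM in DMSO. All 3 groups span about the same range. APOE, which encodes the ligand by which remnants reach receptors on liver cells, was at 4956, 5136 and 1804 FPKM after genistein, at 1009 and 10757 FPKM after BMP6, and at 4493, 5257 and 5177 FPKM in DMSO. The DMSO libraries are close together, genistein 3 and BMP6 1 are low, and BMP6 2 is the highest library. The 95% interval of the log2 change after genistein was -1.52 to 1.15 for APOC1 and -2.46 to 1.52 for APOE. For APOE after BMP6 the mean FPKM was 1.18-fold the DMSO mean while the log2 change was -0.59 ± 0.97, since 1 library is above DMSO and 1 below. APOH, which encodes beta-2-glycoprotein I, a phospholipid-binding plasma protein, was at 3616, 2348 and 2824 FPKM after genistein, at 7535 and 5274 FPKM after BMP6, and at 3709, 5182 and 4512 FPKM in DMSO. Its groups do not overlap, with genistein lowest and BMP6 highest, but the gap between genistein 1 and DMSO 1 is small and neither change passed the threshold (log2 change -0.62 ± 0.44 after genistein, limma adjusted p = 0.378, and 0.51 ± 0.49 after BMP6, limma adjusted p = 0.591).

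**Figure D2:**
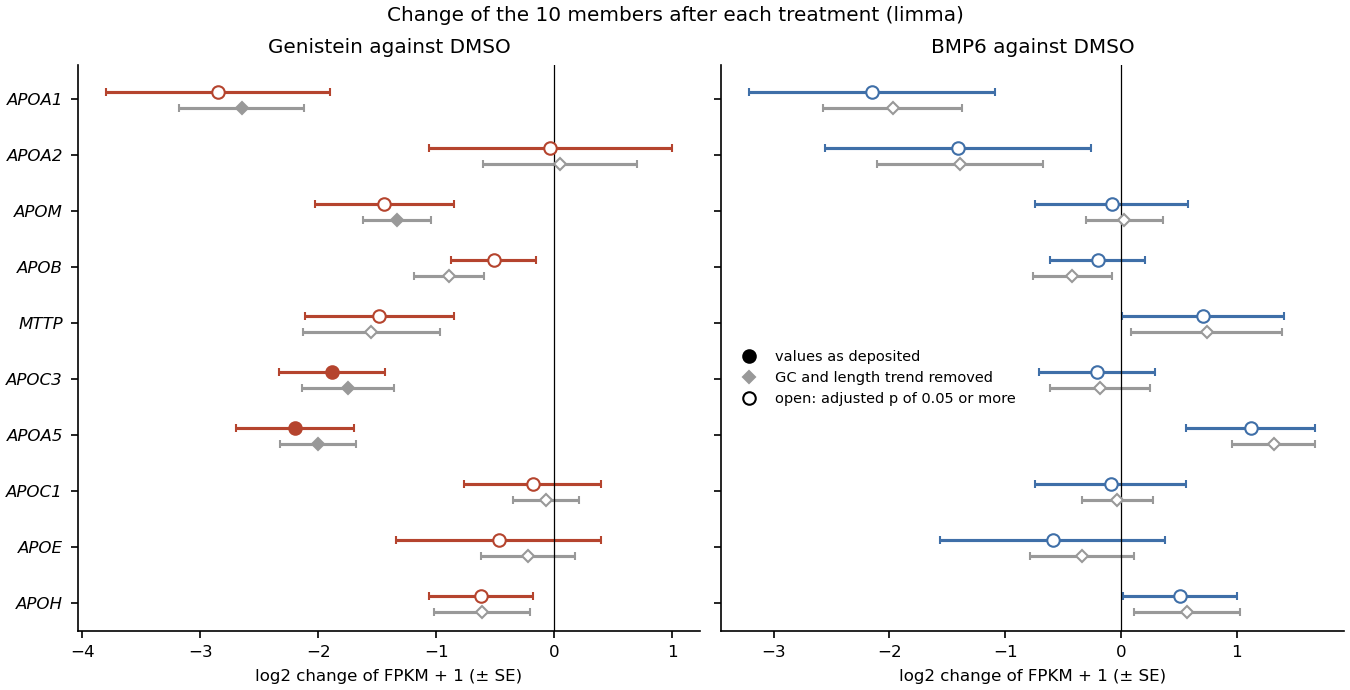
Log2 change of FPKM + 1 (x axis, ± SE) of each member after genistein (left, n = 3) and after BMP6 (right, n = 2), each against the same 3 DMSO libraries. Circles are values as deposited, diamonds are values after removal of each library's trend with GC content and length, and filled symbols have a limma adjusted p under 0.05. On the genistein side APOC3 and APOA5 are filled as deposited, with APOA1 and APOM added once the trend is removed, and no symbol on the BMP6 side is filled.

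After BMP6, 2 members lay below every DMSO library (APOA1 and APOA2, beside 17.3% of all tested genes) and 2 lay above (APOA5 and APOH, beside 16.1%). The median log2 change of the members after BMP6 was -0.14, against -0.03 over all tested genes. Both treatments are compared with the same 3 DMSO libraries, so the 2 sets of changes are not independent. In this bulk RNA, fewer cells with a transcript and less of it per cell cannot be told apart.

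The levels of the members spanned a wide range, and their order shifted between groups. In DMSO the order of mean FPKM was APOA2, APOA1, APOE, APOH, APOB, APOM, APOC1, APOC3, APOA5 and MTTP. Of these, APOE and APOH, then APOB, APOM, APOC1 and APOC3, and finally APOA5 and MTTP were neighbours whose libraries overlap. After genistein APOA2 and APOA1 still came first, but APOA1 no longer stood clear of APOE in every pair of libraries, and MTTP stood above APOA5 with overlap. After BMP6 the same 2 genes led, and only the step between APOC3 and APOA5 was clear of overlap. Together the 10 members made up 4.51%, 3.91% and 3.38% of summed FPKM after genistein, 1.83% and 3.79% after BMP6, and 7.67%, 7.59% and 5.48% in DMSO, and APOA1 and APOA2 held most of it in every library.

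Of 4 other ratios between members, a pair separated genistein from DMSO and the rest overlapped. The ratio of APOC3 to APOC1 was 0.226, 0.26 and 0.32 after genistein, 0.856 and 0.737 after BMP6, and 1.08, 0.752 and 0.791 in DMSO. Genistein stands clear of both other groups, which overlap. The ratio of APOB to MTTP was 71.6, 49.6 and 32.4 after genistein, 5.53 and 30.2 after BMP6, and 27.6, 30.1 and 17.2 in DMSO. All 3 genistein values are above all DMSO values, the lowest of them by little, and BMP6 1 is far below the rest. The ratio of the called members, APOA5 to APOC3, was 0.0539, 0.037 and 0.0586 after genistein, 0.183 and 0.141 after BMP6, and 0.0432, 0.0837 and 0.0712 in DMSO. Genistein and DMSO overlap in it, and both BMP6 libraries are higher. The ratio of APOC1 to APOE overlapped between genistein (0.301 to 0.476) and DMSO (0.212 to 0.414).

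**Figure D3:**
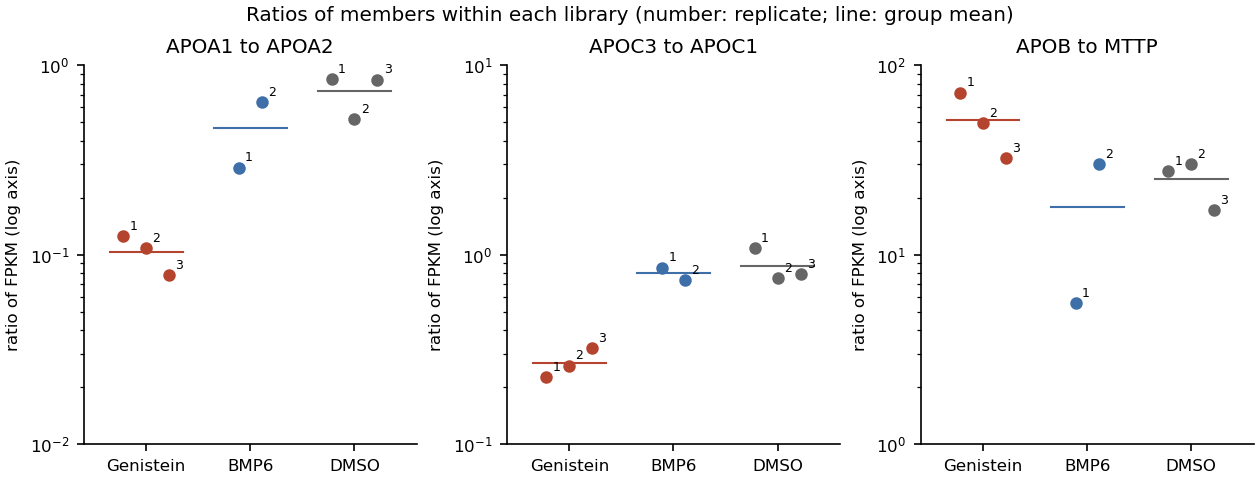
Ratio of FPKM values within each library (log axis) for APOA1 to APOA2, APOC3 to APOC1 and APOB to MTTP in genistein (n = 3), BMP6 (n = 2) and DMSO (n = 3) libraries, with a line at the group mean. Genistein libraries lie below all DMSO libraries for the first pair of ratios and above them for the ratio of APOB to MTTP.

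APOA5, APOC3 and APOA1 sit in a gene cluster on chromosome 11 together with APOA4. All 4 genes of the cluster were lower in every genistein library than in any DMSO library, as were 20.6% of all tested genes. APOA4, which encodes an apolipoprotein of intestinal lipoproteins and is not one of the 10, was at 2.41, 0 and 1.67 FPKM after genistein, at 10.8 and 45.0 FPKM after BMP6, and at 37.0, 17.5 and 26.6 FPKM in DMSO (log2 change -3.69 ± 0.67, limma adjusted p = 0.0152). The 3 nearest tested genes outside it went the other way in value and were not called: ZPR1 had a log2 change of 1.38 ± 0.43 (limma adjusted p = 0.0726), BUD13 of 0.58 ± 0.43 and SIK3 of 1.30 ± 0.47. Around APOE and APOC1 on chromosome 19, TOMM40, NECTIN2 and CLPTM1 had log2 changes of -0.12, 0.02 and -0.09. A gene ID without a symbol (ENSG00000130207), 36.5 kb from APOE, had -1.87 ± 0.55 (limma adjusted p = 0.0611). What that ID encodes was not settled here, so it may itself be an apolipoprotein gene. BCAM had -1.34 ± 0.42 (limma adjusted p = 0.0766), and BCAM and that ID both lay lower in every genistein library than in DMSO. RELB had 1.86 ± 1.21, and no tested gene that begins within 100 kb of APOE was called.

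**Figure D4:**
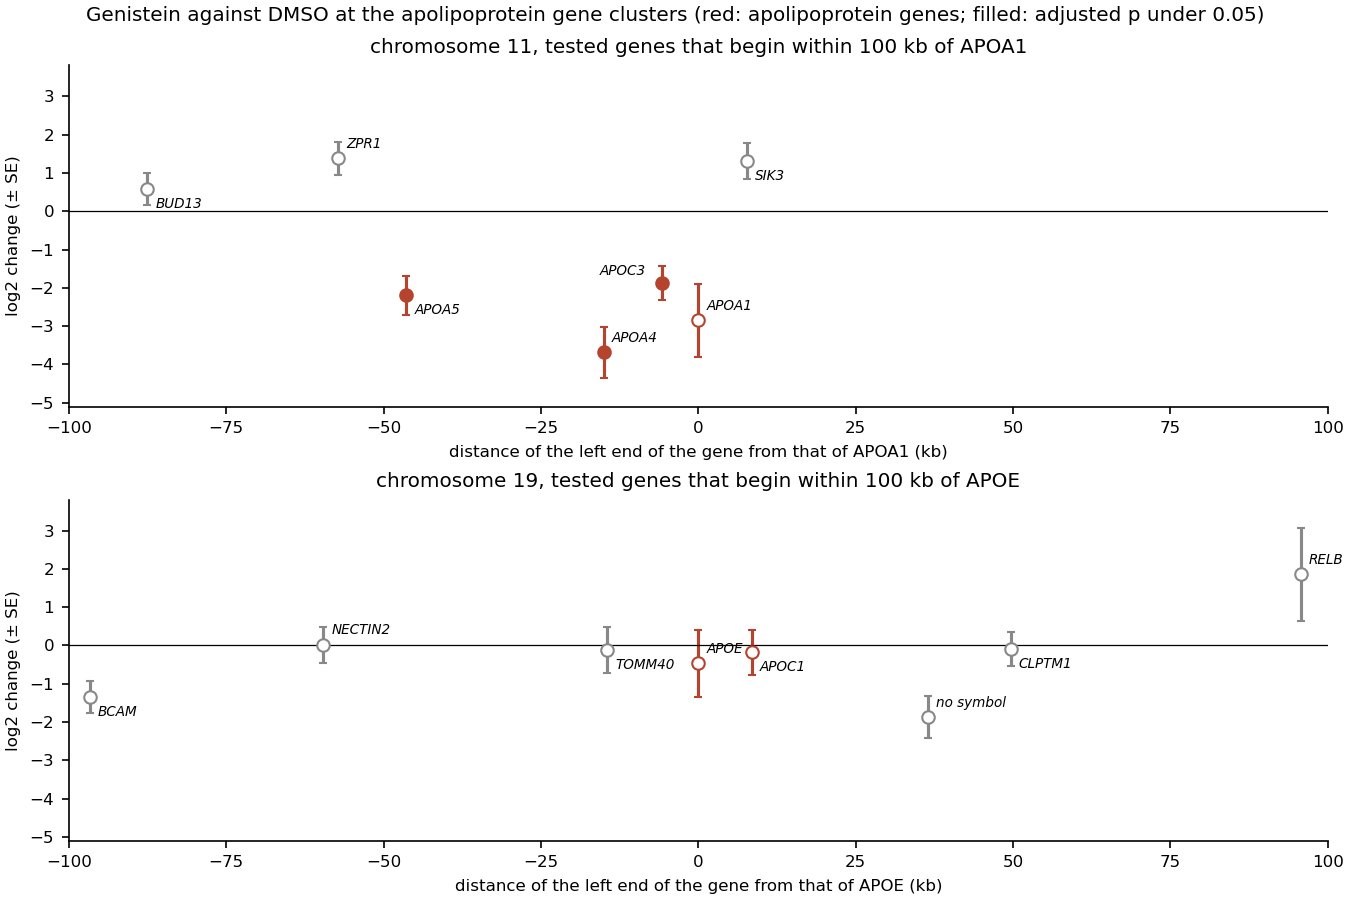
Log2 change (± SE) of genistein (n = 3) against DMSO (n = 3) for each tested gene that begins within 100 kb of APOA1 (top) or APOE (bottom), by distance between the left ends of the genes in kb. APOA5, APOA4, APOC3 and APOA1 (red) lie between -3.69 and -1.88, with the flanking BUD13, ZPR1 and SIK3 (grey) above 0, and APOE and APOC1 lie near 0 among neighbours from -1.87 to 1.86.

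Differences between the BMP6 libraries and between 2 genistein libraries followed transcript length and GC content, and those of most members had the direction of this trend. Across 11546 tested genes, the difference between BMP6 1 and BMP6 2 had a Spearman rho of 0.468 with the length of the longest coding transcript and of -0.566 with GC content, and that between genistein 3 and genistein 1 had 0.463 and -0.447. Between DMSO libraries the relation was weaker, with 0.123 and -0.068 for DMSO 1 and DMSO 3, whose median absolute log2 difference was 0.67, and with 0.108 and -0.286 for DMSO 2 and DMSO 3. Genes whose longest transcript is under 1500 bases had a median log2 difference of -1.84 between BMP6 1 and BMP6 2 and of -0.87 between genistein 3 and genistein 1. The short and GC-rich APOA1 and APOE had log2 differences of -3.19 and -3.41 between the BMP6 libraries, whereas APOB, with the longest transcript at 14121 bases, differed by 0.08. MTTP, with a long transcript and the lowest GC content of the members (42.1%), had a difference of 2.51. Genes of about its length had a median difference of -0.252, with the middle 50% between -1.087 and 0.476. APOH, short but also low in GC (42.9%), had a positive difference of 0.51. The averaged changes of genistein and of BMP6 against DMSO had rho between -0.129 and 0.1 with either property. With the trend of each library removed, a step added after the values were seen, APOA5, APOC3, APOA1 and APOM were called lower after genistein. Their log2 changes were -2.0 ± 0.32, -1.75 ± 0.39, -2.65 ± 0.53 and -1.33 ± 0.29, with limma adjusted p of 0.00492, 0.0149, 0.0108 and 0.0143. Calls were also more common among all genes in that fit, with 1261 of 11546 called lower, against 754 of 12661 in the main fit.

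**Figure D5:**
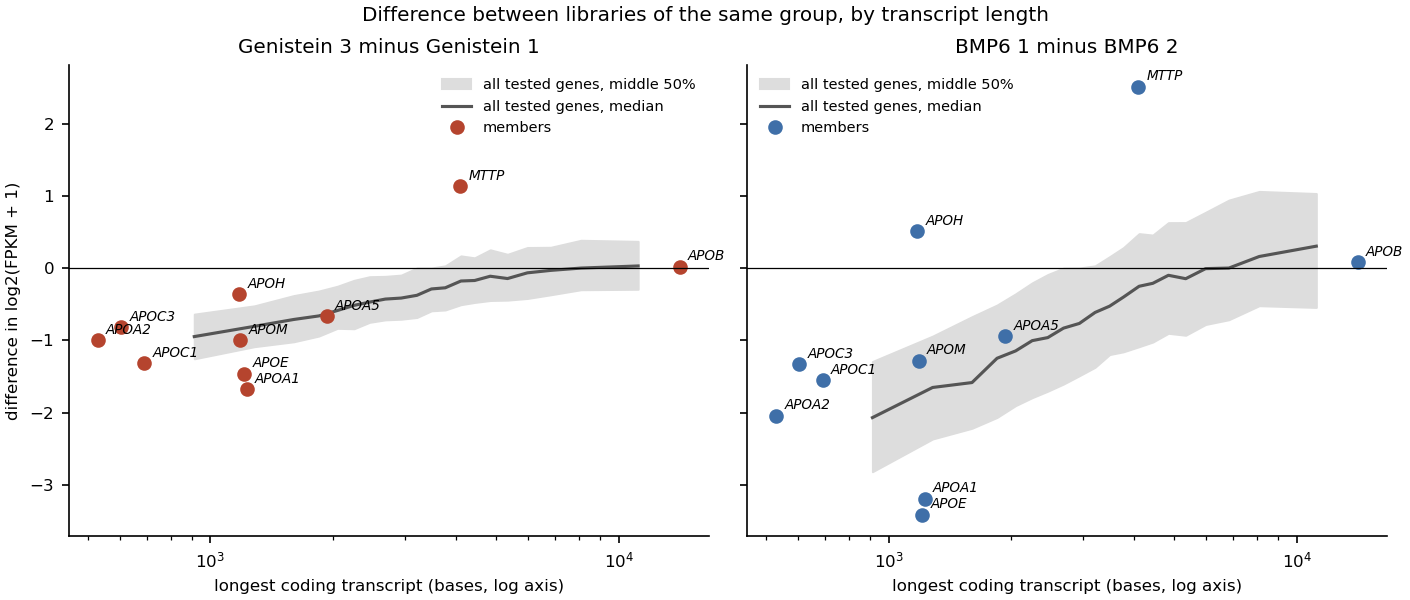
Difference in log2(FPKM + 1) between libraries of the same group (genistein 3 minus genistein 1 at left, BMP6 1 minus BMP6 2 at right) against the length of the longest coding transcript (log axis, bases). The line and band give the median and middle 50% of tested genes in 20 bins of length, and the points are the members, of which APOA1 and APOE fall below the band and MTTP and APOH above it in both panels.

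Genes that handle these proteins were taken as lists chosen with earlier results of these data known. Of 19 tested partners of assembly and secretion, 1 rose and 1 fell after genistein. SAR1B, which encodes the GTPase of the vesicles that carry nascent lipoproteins out of the endoplasmic reticulum, was at 358, 334 and 252 FPKM after genistein against 73.5, 132 and 135 FPKM in DMSO (log2 change 1.5 ± 0.33, limma adjusted p = 0.0274). CIDEB, which encodes a protein that helps lipidate very low density lipoprotein, was at 15.3, 7.86 and 4.72 FPKM after genistein against 582, 289 and 235 FPKM in DMSO (log2 change -5.19 ± 1.01, limma adjusted p = 0.0179). Across all tested genes, 6.11% were called higher and 5.96% lower in this comparison.

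Of 12 tested genes of high density lipoprotein formation and remodelling, 2 fell after genistein and none rose. Of all tested genes, 5.96% were called lower and 6.11% higher. LCAT, the plasma enzyme that esterifies cholesterol with APOA1 as its activator, was at 154, 103 and 83.7 FPKM after genistein against 942, 676 and 567 FPKM in DMSO (log2 change -2.68 ± 0.55, limma adjusted p = 0.0218). LIPC, which encodes hepatic lipase, averaged 49.8 ± 3.66 FPKM after genistein against 189 ± 40.5 FPKM in DMSO (SD, n = 3 each, limma adjusted p = 0.015). ABCA1, the transporter that lipidates APOA1, had a log2 change of -1.55 ± 0.50 that did not pass (limma adjusted p = 0.0808).

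Of 27 tested transcription factors known to act on apolipoprotein genes, 3 fell and 1 rose after genistein, beside 5.96% of all tested genes called lower and 6.11% higher. CREB3L3, which encodes a liver factor known from mouse to act on Apoa4 and Apoa5, was at 45.7, 50.7 and 20.3 FPKM after genistein, at 68.1 and 251 FPKM after BMP6, and at 986, 619 and 465 FPKM in DMSO (log2 change for genistein -4.15 ± 0.57, limma adjusted p = 0.00692). It kept its call without any 1 library. FOXA1, a pioneer factor of liver genes, had a log2 change of -2.25 ± 0.43 (limma adjusted p = 0.0172), and NR2F1, an orphan nuclear receptor that binds apolipoprotein promoters, of -2.37 ± 0.54 (limma adjusted p = 0.0288). NR1D1, which encodes the repressor REV-ERB alpha, known to act on APOC3, rose by 2.21 ± 0.35 (limma adjusted p = 0.0101). HNF4A, a nuclear receptor that acts on many apolipoprotein promoters in liver, was at 275, 201 and 345 FPKM after genistein, at 381 and 191 FPKM after BMP6, and at 208, 227 and 296 FPKM in DMSO, with full overlap and a log2 change of 0.15 ± 0.37 after genistein.

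Of 10 other tested apolipoprotein genes, APOA4 and APOL3 fell after genistein, beside 5.96% of all tested genes called lower. APOL3 was at 1.93, 0 and 0 FPKM after genistein against 5.87, 9.78 and 15.0 FPKM in DMSO (log2 change -2.89 ± 0.67, limma adjusted p = 0.0311). APOL1, which encodes the trypanolytic factor of high density lipoprotein, rose after BMP6 to 355 and 675 FPKM in BMP6 1 and 2, against 48.9, 87.3 and 97.7 FPKM in DMSO (log2 change 2.70 ± 0.45, limma adjusted p = 0.0448). APOL1 was the only gene of these lists called in that comparison, in which 0.837% of all tested genes were called. That call was lost without any 1 library other than BMP6 2. The calls of SAR1B, CIDEB, LCAT, LIPC, APOA4, APOL3, FOXA1, NR2F1 and NR1D1 were each lost without at least 1 of the 6 genistein and DMSO libraries. That of LCAT was lost without any 1 of these libraries, and that of NR1D1 only without DMSO 2. When 1 of the 6 was left out, SAR1B and NR2F1 kept their calls only without DMSO 1, and APOL3 only without genistein 1.

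The genes whose pattern over the 8 libraries was most like that of a called member were found by the root mean square difference of centred log2 values. For APOA5 they were DPEP1, SCD and FZD4, with differences of 0.334, 0.348 and 0.394. For APOC3 they were TCEA3, SERPINA6 and CDK5, with differences of 0.118, 0.189 and 0.203. Among the members themselves, APOM was nearest to APOC3 (0.399) and APOC3 was nearest to APOA5 (0.729). They ranked only 91 and 85 in likeness among 11979 genes, so many genes that are not members were nearer.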

How the data were processed

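PolyA RNA of HepG2 cells from 8 cultures was sequenced on a Genome Analyzer II, per the labels' protocols. Per the submitters' processing notes, the tools were TopHat 1.1.0, Bowtie, Cufflinks 1.0.3 and Cuffdiff and the build was hg18, and no settings are listed. The authors deposited 1 FPKM value per Ensembl gene and library, per the file headers, and the values were used without further scaling. Depth is unknown, so no counting intervals were computed. Groups and replicate numbers came from the titles. They are biological replicates per the series design.

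Symbols were matched to 19069 of 20897 gene IDs. The 12661 genes that reached 1 FPKM in 2 or more libraries were fitted as log2(FPKM + 1) in all 8 libraries with limma 3.58.1 (R 4.3.3), with an intensity trend and 5 residual and 3.22 prior degrees of freedom. The two-sided p-values were adjusted by Benjamini-Hochberg over all tested genes, with a threshold of 0.05. A fold change on this scale understates that of low genes. The exact permutation test on 1 gene cannot go below p = 0.1 for 3 against 3 libraries or 0.2 for 2 against 3, and was not used for calls. The fit was tested on simulated data.

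The members, the lists of related genes and the markers were chosen with earlier results of these data known. The text names the listed genes called against DMSO, up to 6 per list by smallest p, except a few items and the list of receptors, which are not reported here, and the 3 genes most like each called member in the root mean square difference of centred log2 values. Genes named beside these (ABCA1, HNF4A and the neighbours of the clusters) were chosen after their values were seen. PECAM1, CEBPA, GPIHBP1, APOC2 and APOC4 were not analysed here under those symbols. Gene coordinates in hg18 come from the files and count from 1. Promoter sequences are RefSeq's for GRCh38.p14, and 7 members were matched to 11 start sites. Transcript length and GC content are of GENCODE v29. Other scalings, filters, pseudocounts, weights, a block and the omission of libraries were tried. Python 3.11.15 and pandas 2.3.3 made the tables.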

Additional observations from a re-analysis of the deposited data

How the results depend on the processing

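The tests were rerun under 21 other settings, the GC and length correction and the omission of DMSO 1 and genistein 2 together being chosen after seeing the data. Of 630 recomputed log2 changes of members, 555 kept both direction and side of the threshold, 24 passed it newly, 26 no longer passed it and 25 changed sign; the cause was not tested in any case. Depth is unknown, so what it limits cannot be stated.

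For genistein against DMSO, 2 members were called. The count was 4 with median-of-ratios scaling, scaling to a common total, quantile normalization, only the 2 groups compared, or the GC and length trend removed, 5 with arrayWeights, 0 without DMSO 1 and genistein 2 together, and 0 to 4 without 1 library. Over all tested genes 1527 were called. Scaling to a common total gave 2296, quantile normalization 2395, arrayWeights 5383, only the 2 groups compared 2690, the GC and length correction 2772, the omission of DMSO 1 and genistein 2 together 424, and the fits without 1 library 229 to 2671. Of the calls 50.6% were higher, against 37.7% with the common total, 36.3% without DMSO 1 and genistein 2, and 32.6% (without genistein 1) to 56.1% (without DMSO 3) without 1 library.

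For BMP6 against DMSO, 0 members were called, and 0 to 2 without 1 library. Over all genes 106 were called, 40.6% of them higher. The count was 184 with pseudocount 5, 38 with a mean of at least 5 FPKM, 382 with median-of-ratios scaling, 631 with the common total (19% higher), 338 with quantile normalization, 8 with arrayWeights, 173 with no trend, 17 with only the 2 groups compared, 164 without DMSO 1 and genistein 2 together, 738 with the GC and length correction, and 5 to 1999 without 1 library.

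For genistein against BMP6, 1 member was called. The count was 2 with median-of-ratios scaling, the common total, quantile normalization and the GC and length correction, 0 with arrayWeights, with only the 2 groups compared and without DMSO 1 and genistein 2 together, and 0 to 1 without 1 library. Over all genes 176 were called, against 417, 411, 424 and 632 with the first 4 of these, 38 with arrayWeights, 37 with only the 2 groups compared, and 42 to 629 without 1 library. The median of all tested genes moved from 0.116 to -0.04 with median-of-ratios scaling in this comparison, and from 0.048 to -0.053 for genistein against DMSO with either that or the common total.

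Sign changes all concerned members that were not called. For genistein against DMSO, APOA2 (-0.03) was 0.00 with quantile normalization, 0.05 with the GC and length correction and -0.28 to 0.22 without 1 library, where APOC1 was -0.56 to 0.18 and APOE -0.73 to 0.02. For BMP6 against DMSO, APOM (-0.08) was 0.03 with the GC and length correction while without 1 library APOM was -0.72 to 0.56, MTTP -0.55 to 1.97, APOC3 -0.87 to 0.46, APOC1 -0.86 to 0.68 and APOE -2.30 to 1.12. For genistein against BMP6, APOE (0.12) was -0.08 with median-of-ratios scaling and -0.14 without DMSO 1 and genistein 2 together, and without 1 library APOA1 was -2.29 to 0.90, APOC1 -0.87 to 0.68 and APOE -1.59 to 1.83.

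The replicate number was added as a block. Deviations of same-numbered libraries from their group means had correlations of -0.247 to 0.286 over 7 pairs. Pairs of unlike number had -0.594 to 0.594, both extremes being genistein 3 with a BMP6 library. Between genistein and DMSO, pairs of the same number had -0.146, -0.065 and -0.005, and pairs of unlike number -0.085 to 0.139. Deviations of the BMP6 libraries mirror each other, and all deviations are from means of few libraries. These values therefore cannot decide whether the numbers pair the cultures. With the block, 0 members and 414 genes were called for genistein against DMSO, 0 and 4 for BMP6 against DMSO, and 0 and 7 for genistein against BMP6, and APOM was 0.07 after BMP6.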
